A study of Gallus gallus with 8 samples.

Results

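KDR, FLT1, TEK, FLI1, LMO2, TAL1, RUNX1 and SOX18 are 8 genes of the vascular and blood programmes, followed here across early chick ectoderm. They were chosen by name, as the rows of the deposited count table whose gene name equals one of the 8, out of 17329 genes in all. All 8 were found, 7 under an Ensembl identifier and TAL1 under a RefSeq accession. In 7 of the 8 genes the non-neural ectoderm had the highest level of the 8 libraries, and SOX18 was the exception. Of the 12491 genes with at least 1 count per 1000000 in a library, 2332 (18.7%) were also highest there.

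RNA of dissected tissue pieces was sequenced with an Illumina TruSeq RNA kit, 1 library per group. Non-neural ectoderm (head ectoderm, labelled anterior, outside the neural and placodal territories), both parts of the preplacodal region (the strip that gives cranial sense organs and ganglia), anterior and posterior, and the neural plate came from embryos at HH6/7, Hamburger and Hamilton's stages 6 and 7. Node-grafted area opaca was extraembryonic epiblast that had touched a graft of Hensen's node, the avian organiser, for 5 hours from HH4, and ungrafted area opaca was the other side of those embryos. Anterior and central epiblast were taken before the primitive streak formed, at EGK stages XII/XIII. The labels name no transgene or mutation, no strain and no number of embryos pooled. The non-neural ectoderm and both preplacodal libraries came from 1 laboratory and the other 5 libraries from another. Laboratory and tissue therefore cannot be told apart between the non-neural ectoderm and any of those 5, the neural plate and ungrafted area opaca among them.

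VEGF receptors, the angiopoietin receptor and a small circuit of transcription factors together build blood vessels and the earliest blood. In the chick both arise in mesoderm, above all in the blood islands of the yolk sac that form beneath the extraembryonic ectoderm, from precursors that carry KDR. TAL1, LMO2, FLI1 and GATA factors work there as a connected circuit, RUNX1 is needed for blood stem cells to form from endothelium, and SOX18 acts in arteries and lymphatic vessels.

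Levels are given as CPM, a gene's counts per 1000000 counts of its library. Totals ran from 13053810 counts in node-grafted area opaca to 138666339 in the posterior preplacodal region, and the non-neural library had 58731944. The number of genes at 5 CPM or more ran from 8877 to 9737 per library. A floor of 3 counts, at or under which in both libraries no ratio is given, corresponded to 0.230 CPM in node-grafted and 0.206 CPM in ungrafted area opaca, and to between 0.0216 and 0.0511 CPM in the other 6. With 1 library per group no difference has a replicate check and no test was made. Brackets hold exact 95% intervals for counting error alone. A gene is called when its CPM differs by a ratio of 2 or more between libraries and is 5 or more in one of them. In pieces of tissue, more cells of a type and more RNA per cell cannot be told apart.

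The 3 receptors were read at their highest in non-neural ectoderm. KDR (ENSGALG00000013907), the main signalling receptor for VEGF, stood at 32.8 CPM [31.4, 34.3] in non-neural ectoderm, against 1.35 in anterior preplacodal, 2.50 in posterior preplacodal and 1.65 in neural plate tissue, 2.30 in node-grafted and 0.961 in ungrafted area opaca, and 2.33 in anterior and 2.24 in central pre-streak epiblast. The non-neural library alone was high, at 13.1 times [11.7, 14.7] the next one. Among the other 7 a single step between neighbours in the order, central pre-streak epiblast over neural plate, exceeded counting error.

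FLT1 (ENSGALG00000017091), the VEGF receptor that binds the ligand tightly and signals little, stood at 8.63 CPM [7.90, 9.42] in non-neural ectoderm, against 0.603 in anterior preplacodal, 0.880 in posterior preplacodal and 0.182 in neural plate tissue, 0.689 in node-grafted and 1.58 in ungrafted area opaca, and 1.01 in anterior and 0.459 in central pre-streak epiblast. Its second library was ungrafted area opaca, 5.47-fold below [3.605, 8.71]. The neural plate was lowest, with 20 counts.

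TEK (ENSGALG00000001840), the receptor for angiopoietins, was the faintest receptor at 1.55 CPM [1.25, 1.90] in non-neural ectoderm, against 0.104 in anterior preplacodal, 0.101 in posterior preplacodal and 0.400 in neural plate tissue, 0 in node-grafted and 0.0686 in ungrafted area opaca, and 0.0401 in anterior and 0.0499 in central pre-streak epiblast. The neural plate, with 44 counts, was second and 3.87-fold below [2.67, 5.68]. It was also above the anterior preplacodal region, the next in order, by more than counting error.

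Of the 5 regulators, 4 were likewise highest in non-neural ectoderm. LMO2 (ENSGALG00000028582), a bridging protein that joins TAL1 to GATA factors, stood at 19.0 CPM [17.9, 20.1] in non-neural ectoderm, against 1.17 in anterior preplacodal, 1.76 in posterior preplacodal and 2.85 in neural plate tissue, 1.53 in node-grafted and 0.274 in ungrafted area opaca, and 2.90 in anterior and 1.63 in central pre-streak epiblast. LMO2 was above 1 CPM in all libraries except ungrafted area opaca, where it had 4 counts. Its second library was the anterior pre-streak epiblast, 6.54-fold below [5.74, 7.47].

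FLI1 (ENSGALG00000001161), an ETS factor of endothelium and megakaryocytes, stood at 2.93 CPM [2.51, 3.40] in non-neural ectoderm, against 0.0416 in anterior preplacodal, 0.0793 in posterior preplacodal and 0.0364 in neural plate tissue, 0 in node-grafted and 0.137 in ungrafted area opaca, and 0.0401 in anterior and 0.0799 in central pre-streak epiblast. Outside the non-neural ectoderm FLI1 had at most 11 counts. No step between neighbours in the order of the other 7 libraries exceeded counting error.

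TAL1, the basic helix-loop-helix factor also known as SCL, stood at 2.38 CPM [2.01, 2.81] in non-neural ectoderm, against 0.0727 in anterior preplacodal, 0.137 in posterior preplacodal and 0.146 in neural plate tissue, 0 in node-grafted and 0.0686 in ungrafted area opaca, and 0.140 in anterior and 0.0799 in central pre-streak epiblast. Again 1 library was high, 16.4-fold above the next [9.73, 29.4], and no step between neighbours in the order of the other 7 exceeded counting error. The table lists the gene a second time as SCL (ENSGALG00000023296), with the same count in 8 of 8 libraries.

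RUNX1 (ENSGALG00000016022), the core-binding factor of definitive blood, stood at 2.06 CPM [1.71, 2.46] in non-neural ectoderm, against 0.384 in anterior preplacodal, 0.173 in posterior preplacodal and 0.0364 in neural plate tissue, 0 in node-grafted and 0.206 in ungrafted area opaca, and 0.0702 in anterior and 0.1098 in central pre-streak epiblast. The anterior preplacodal region, with 37 counts, was second and 5.36-fold below [3.68, 7.97].

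SOX18 (ENSGALG00000026582), a SoxF factor of endothelium, did not share this pattern. It stood at 1.53 CPM [1.23, 1.88] in non-neural ectoderm, against 0.748 in anterior preplacodal, 1.62 in posterior preplacodal and 1.86 in neural plate tissue, 1.76 in node-grafted and 0.549 in ungrafted area opaca, and 2.57 in anterior and 1.69 in central pre-streak epiblast. Its highest library was the anterior pre-streak epiblast, 1.38-fold above the neural plate [1.15, 1.67]. SOX18 reached 1 CPM in 6 of 8 libraries, and the non-neural value lay inside the range of the others.

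**Figure D1:**
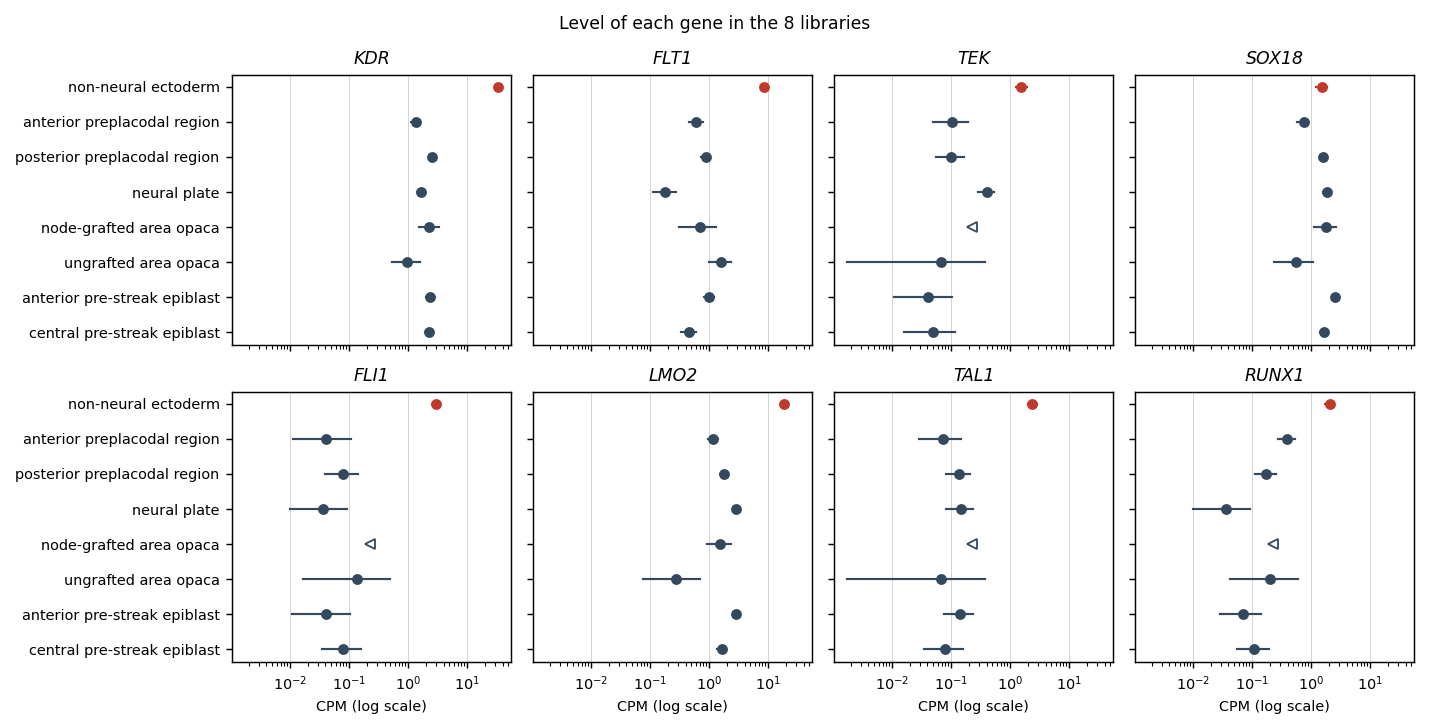
Level of the 8 genes in each library, in CPM on a log axis; points are the single libraries, lines exact 95% counting intervals and open triangles the limit of 3 counts where a gene had no count. Non-neural ectoderm, in red, is the highest point in 7 panels, while SOX18 at 1.53 CPM lies among the others.

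Summed over the 8 genes, non-neural ectoderm held 70.8 CPM and the other libraries between 3.84 and 9.10. Of this sum KDR and LMO2 made up most. The share of a gene's CPM, summed over all libraries, that fell to non-neural ectoderm was 12.4% for SOX18 and between 61.0% (LMO2) and 87.6% (FLI1) for the other 7. In node-grafted area opaca 4 of the 8 (TEK, FLI1, TAL1 and RUNX1) had no count, and in ungrafted area opaca the same 4 had between 1 and 3.

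Requiring non-neural ectoderm to be at least 2 times every other library picked 168 of 10644 genes at 5 CPM or more (1.58%), among them KDR, FLT1 and LMO2. With a minimum of 1 CPM it picked 270 of 12491 genes (2.16%), among them 7 of the 8 and not SOX18. KDR, FLT1 and LMO2 reach 5 CPM in non-neural ectoderm alone and the other 5 genes in no library, and TEK, FLI1, TAL1 and RUNX1 reach 1 CPM in non-neural ectoderm alone. Passing the minimum therefore already put them higher there. The 8 were named with such results known, and these shares describe the genes without testing them.

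Set against single tissues, KDR, FLT1 and LMO2 were called higher in non-neural ectoderm than in each of 4 others. In these comparisons they were the 3 genes that the minimum of 5 CPM let in, all through non-neural ectoderm, so that a call of lower could not occur and nothing is read from the count. Over the neural plate all 3 were called, and among the 10206 genes let in 13.1% were higher and 9.18% lower. KDR was 19.9-fold higher [17.1, 23.3], FLT1 47.4-fold [30.4, 78.3] and LMO2 6.65-fold [5.86, 7.57]. Among the genes too low for the rule, the ratio was 80.4 [30.9, 299] for FLI1, 56.6 [21.5, 211] for RUNX1, 16.4 [9.73, 29.4] for TAL1 and 3.87 [2.67, 5.68] for TEK. For SOX18 it was 0.825 [0.637, 1.06], an interval that holds 1. With the minimum at 1 CPM, 7 of 8 were called higher, 5 of them let in by non-neural ectoderm alone, and 15.8% of all genes were.

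The preplacodal libraries came from the same laboratory as the non-neural one. Over the anterior preplacodal region all 3 were called higher, and of all genes let in 7.22% were higher and 6.73% lower. KDR was 24.3-fold higher [20.3, 29.2], LMO2 16.1-fold [13.3, 19.8] and FLT1 14.3-fold [10.9, 19.1]. Under the rule's minimum, the ratio was 70.5 [27.0, 262] for FLI1, 32.8 [15.5, 83.0] for TAL1, 14.9 [7.75, 32.1] for TEK, 5.36 [3.68, 7.97] for RUNX1 and 2.05 [1.49, 2.83] for SOX18. At 1 CPM all 8 were called higher, 6 of them let in by non-neural ectoderm alone, and 8.92% of all genes were.

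Over the posterior preplacodal region KDR was 13.1-fold [11.7, 14.7], LMO2 10.8-fold [9.37, 12.4] and FLT1 9.81-fold higher [8.04, 12.1]. All 3 were called again, and of all genes let in 8.48% were higher and 6.93% lower. The ratio was 36.9 [20.1, 75.3] for FLI1, 17.4 [10.7, 29.8] for TAL1, 15.3 [8.69, 29.2] for TEK, 11.9 [7.64, 19.3] for RUNX1 and 0.949 [0.734, 1.22] for SOX18. At 1 CPM 7 of 8 were called higher, 5 of them let in by non-neural ectoderm alone, and of all genes 10.4% were higher and 8.54% lower. The 3 comparisons share the non-neural library, so their likeness is no independent support.

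Ungrafted area opaca is another ectoderm that is neither neural nor placodal, taken outside the embryo proper, at an earlier stage and in the other laboratory. Tissue, stage and laboratory cannot be told apart in this comparison. All 3 genes let in were called higher in non-neural ectoderm, and of all genes let in 14.8% were higher and 2.75% lower. LMO2 was 69.0-fold [26.9, 254], KDR 34.2-fold [20.3, 62.6] and FLT1 5.47-fold higher [3.605, 8.71]. The call of FLT1 was lost with FPKM and a pseudocount of 1, at a log2 ratio of 0.81. The other ratios rest on few counts in the shallow area opaca library: 34.7 [6.13, 1382] for TAL1 and 22.6 [3.95, 902] for TEK on 1 count each, 21.3 [5.82, 178] for FLI1 on 2, 10.01 [3.34, 49.2] for RUNX1 on 3 and 2.79 [1.36, 6.66] for SOX18 on 8. At 1 CPM all 8 were called higher, 7 of them let in by non-neural ectoderm alone, and 20.8% of all genes were. Every ratio of this comparison is 0.18 lower on the log2 scale with TMM or DESeq2 scaling, and the median of all genes in it was 0.21 with totals.

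**Figure D2:**
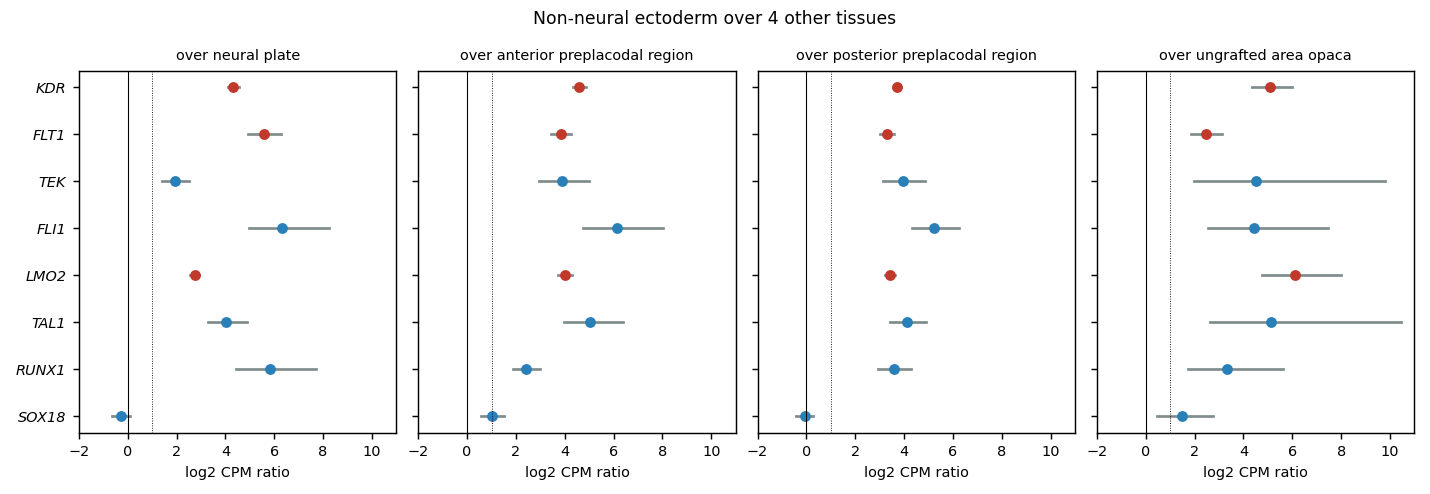
Log2 CPM ratio of non-neural ectoderm over 4 tissues for each gene, with exact 95% counting intervals; red points are genes that reach 5 CPM on either side and blue points genes under it, and the dotted line marks a ratio of 2. KDR, FLT1 and LMO2 lie right of the dotted line in 4 of 4 panels, and SOX18 lies nearest to 0 in each.

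Over the 8 genes the median log2 ratio was 4.17 over the neural plate, 3.96 over the anterior and 3.64 over the posterior preplacodal region, and 4.46 over ungrafted area opaca. Over all genes at 1 CPM the medians were -0.02, -0.04, -0.04 and 0.21. The 8 genes entered all 4 medians, TEK, FLI1, TAL1 and RUNX1 each time through their non-neural level alone. So did FLT1 over the neural plate and both preplacodal regions, and SOX18 over the anterior one. Over ungrafted area opaca 7 of the 8 did, all but FLT1. Passing the minimum thus favoured high medians, and nothing is read from their distance to all genes. With FPKM, which leaves out TAL1, the medians of the 8 genes were 1.36, 1.29, 1.18 and 1.03 in the same order at a pseudocount of 1. At 0.1 they were 3.47, 3.09, 2.83 and 2.21, so that the comparison with the highest median had the lowest.

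Between node-grafted and ungrafted area opaca none of the 8 could be called, since none reached 5 CPM on either side. Of the 9437 genes that did, 7.56% were higher and 8.57% lower. KDR stood at 2.30 CPM in node-grafted and 0.961 CPM in ungrafted area opaca (ratio 2.39 [1.23, 4.88], from 30 and 14 counts). LMO2 stood at 1.53 against 0.274 CPM (5.58 [1.87, 22.5]) and SOX18 at 1.76 against 0.549 CPM (3.21 [1.39, 8.30]). FLT1 lay the other way, at 0.689 against 1.58 CPM (0.437 [0.178, 0.980]). With a minimum of 1 CPM these counted as 3 higher and 1 lower, each let in by its higher side alone, and of all genes 10.1% were higher and 11.3% lower. The other 4 genes were at or under 3 counts on both sides and allow no ratio. For KDR, FLT1 and LMO2 both sides lay under the non-neural level at HH6/7.

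Between anterior and central epiblast before the streak formed, none of the 8 reached 5 CPM and none could be called. Of the 9312 genes that did, 6.09% were higher and 4.71% lower. FLT1 stood at 1.01 CPM in anterior and 0.459 CPM in central epiblast (2.21 [1.54, 3.20]) and was the 1 gene called at 1 CPM, which it reached in anterior epiblast alone, where 8.61% of all genes were higher and 5.95% lower. LMO2 stood at 2.90 against 1.63 CPM (1.78 [1.46, 2.17]) and SOX18 at 2.57 against 1.69 CPM (1.52 [1.25, 1.86]). KDR was nearly level, at 2.33 against 2.24 CPM (1.04 [0.862, 1.26]). Low KDR and LMO2 were thus counted in both libraries of the earliest stage, with 163 to 289 counts each.

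Levels of different genes can be compared per length, in the FPKM values that the authors deposited. Per length LMO2 led in non-neural ectoderm at 7.21 FPKM, followed by SCL, the Ensembl row of TAL1, at 5.19 and KDR at 4.32. FLI1 at 1.78, FLT1 at 1.73 and RUNX1 at 1.57 FPKM were close to each other, with SOX18 at 0.871 and TEK at 0.205 FPKM below. By its SCL row TAL1, under KDR in CPM, thus stood above it per length. The RefSeq row of TAL1 was not used. It holds 12.5 FPKM in the posterior preplacodal column, which for RefSeq genes followed the non-neural counts. Taken as the non-neural value, this would put TAL1 above LMO2, so that the place of TAL1 depends on the row. The highest FPKM in any other library was 1.25 for LMO2, 0.371 for SCL and 0.372 for KDR, while SOX18 reached 1.503.

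**Figure D3:**
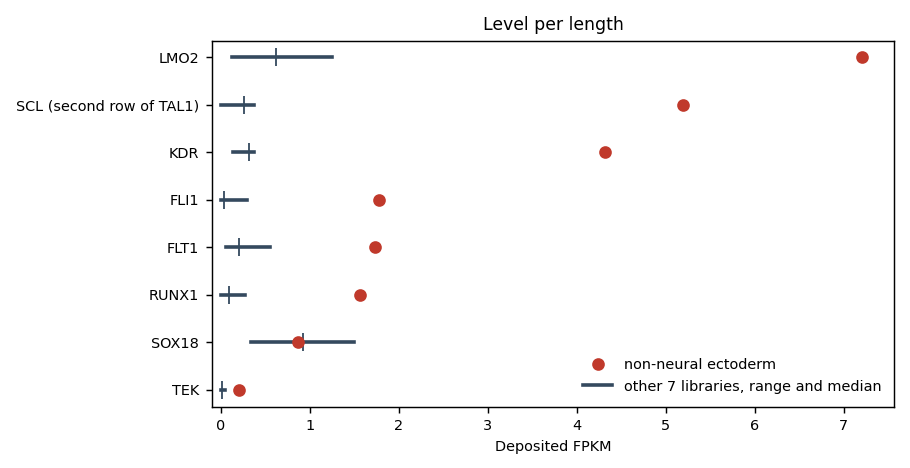
Deposited FPKM of the genes with an Ensembl row; red points are the non-neural ectoderm, bars the lowest to highest of the other 7 libraries and ticks their median. LMO2, SCL and KDR lead in non-neural ectoderm, and SOX18 at 0.871 FPKM lies within its bar.

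Other genes of the same programmes were read from lists. Beside their calls over the neural plate, and those of the marker lists below, stand 13.1% higher and 9.18% lower among all 10206 genes let in. In the list of vascular receptors and ligands, 15 of 30 matched genes reached 5 CPM, and 6 were higher in non-neural ectoderm than in the neural plate, 3 lower and 6 neither. FLT4, the VEGF receptor of lymphatic vessels, stood at 53.1 against 8.35 CPM (6.36-fold [5.91, 6.86]), and was already at 29.2 CPM in ungrafted area opaca. PLXND1, a semaphorin receptor of vessels, stood at 12.04 against 1.42 CPM and PDGFRA, a mesenchymal growth factor receptor, at 16.2 against 3.795 CPM. The BMP-binding protein BMPER had the greatest ratio of the list, at 95.6 against 0.328 CPM (292-fold [210, 417]), with 55.4 CPM in the anterior preplacodal region. The guidance receptor UNC5B (433 against 95.7 CPM) and the chemokine CXCL12 (68.0 against 19.97 CPM) were also higher. The VEGF co-receptor NRP2 (44.5 against 97.9 CPM), ANGPTL2 and CXCR4 were lower. Of the ligands of the VEGF receptors VEGFC alone reached 5 CPM and was called in neither direction, at 8.27 against 15.5 CPM. VEGFA, PGF and FIGF were under the minimum and could not be called. VEGFA stood at 3.03 against 0.856 CPM (3.54-fold [2.74, 4.598]) and PGF at 2.09 against 0.400 CPM (5.23-fold [3.68, 7.56]). FIGF had 27 counts in non-neural ectoderm and none in the neural plate. PGF was higher still in ungrafted area opaca (5.35 CPM), and FIGF in the posterior preplacodal region (1.46 CPM). TIE1, the partner of TEK, stood at 3.41 against 3.13 CPM.

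Surface proteins of endothelium were mostly too low to be called. Of 28 matched genes 9 reached 5 CPM, with 3 higher, 2 lower and 4 neither. CDH5, the cadherin of endothelial junctions, stood at 8.31 CPM in non-neural ectoderm, against 0.0208 in anterior preplacodal, 0.325 in posterior preplacodal and 0.0819 in neural plate tissue. It was 101-fold higher than in the neural plate [53.0, 223] and had no count in either area opaca library. EGFL7, a secreted endothelial protein, stood at 29.4 against 1.06 CPM (27.8-fold [23.0, 33.8]) and CAV1, the coat protein of caveolae, at 13.7 against 2.31 CPM. ESAM, an adhesion molecule, was lower at 7.97 against 17.8 CPM, and JAM2 likewise at 7.56 against 28.2 CPM. CD34 had 62 counts in non-neural and 1 in the neural plate, and LYVE1, VWF and ROBO4 were at most at 0.0341 CPM in non-neural ectoderm.

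Among regulators of vessels and blood 36 were matched and 19 reached 5 CPM, with 9 higher, 1 lower and 9 neither. GATA2, a GATA factor of blood stem cells that is also a BMP-induced factor of surface ectoderm, stood at 660 against 3.26 CPM (203-fold [183, 225]). It was also high in ungrafted area opaca (341 CPM) and in the anterior (272 CPM) and posterior preplacodal region (196 CPM). RUNX2, the bone-forming relative of RUNX1, stood at 17.7 against 0.519 CPM (34.2-fold [26.2, 45.5]). The zinc finger repressor GFI1 had 327 counts in non-neural ectoderm and none in the neural plate, and the interval of its ratio began at 165. ETS1 (56.5 against 10.8 CPM), ETS2 (79.7 against 11.5), GATA3 (56.3 against 1.38), MEIS1 (20.3 against 8.04), the GATA cofactor ZFPM1 and the corepressor CBFA2T3 were also higher, and HEY1 lower. Non-neural ectoderm was not the highest library for ETS1 (81.8 CPM in central pre-streak epiblast) or ETS2 (138 in ungrafted area opaca). Nor was it for GATA3 (104 in the anterior preplacodal region) or MEIS1 (21.0 in the posterior). The partners of LMO2 and TAL1 in their complex, LDB1 (64.2 against 102 CPM) and TCF3 (180 against 291 CPM), passed no rule. CBFB, the partner of RUNX1, stood at 53.8 against 33.6 CPM. ERG, the closest relative of FLI1, stood at 0.953 against 0.355 CPM.

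Genes of blood cells gave few calls. Of 25 matched genes 6 reached 5 CPM, with 3 higher, 1 lower and 2 neither. FECH, the last enzyme of haem synthesis, stood at 94.0 against 24.6 CPM, the tetraspanin CD9 at 38.7 against 0.610 CPM and TSPO2 at 11.1 against 5.46 CPM. The transferrin receptor TFRC was lower at 79.1 against 198 CPM. In ungrafted area opaca FECH stood at 91.6 and CD9 at 58.7 CPM. The pan-leukocyte gene PTPRC stood at 3.42 against 0.610 CPM, and the macrophage receptor CSF1R at 0.272 against 0.0182 CPM. The 2 genes called in neither direction, LCP1 (2.69 against 5.33 CPM) and ITGB3 (4.89 against 9.64 CPM), lay the other way. RAC2 stood at 0.153 against 0.209 CPM, with an interval that holds 1. VAV1 and LAPTM5 had no count in non-neural ectoderm. Median log2 ratios of the genes at 1 CPM were 0.49 for receptors and ligands, 0.91 for surface proteins, 1.24 for regulators and 1.03 for blood cell genes, where all genes had -0.02. The same medians were 0.34, 0.49, 0.31 and 0.06 over the anterior and 0.13, 0.49, 0.29 and 0.71 over the posterior preplacodal region, where all genes had -0.04. Over ungrafted area opaca they were 0.999, 1.51, 0.91 and -0.43, where all genes had 0.21, so that blood cell genes lay the other way there. Over the neural plate, the minimum let in many list genes through non-neural ectoderm alone, among them CDH5, CD34, BMPER, RUNX2 and CD9. Far fewer, ACVRL1 and THBD, entered through the neural plate alone. Passing the minimum thus favoured high medians there. The lists were also chosen with earlier results known. Nothing is therefore read from the distance of these medians to all genes.

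**Figure D4:**
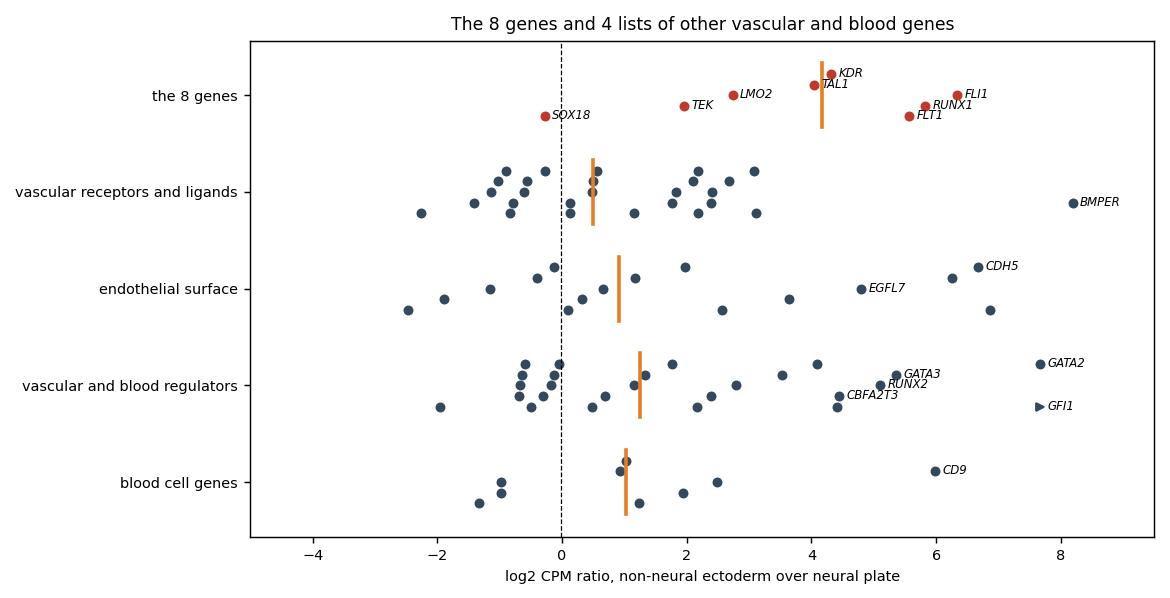
Log2 CPM ratio of non-neural ectoderm over neural plate for the 8 genes and for 4 lists of other genes, 1 point per gene that reaches 1 CPM in either library; orange bars are medians, the dashed line is the median of all genes and a triangle is a bound against 3 counts. The 8 genes have a median of 4.17, and the lists medians between 0.49 and 1.24 with single genes such as CDH5 and GATA2 far to the right.

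The genes whose profile was most like that of the 8 were ranked by Pearson r over the 8 libraries, between log2(CPM + 0.5) of a gene and the mean standardised profile of the 8. Among 9421 other genes with a symbol that reached 5 CPM in a library, CDH5 came first (r 0.985). SDHB, CCR6, PARP4, SLC25A36, GMPPA, HOXA3, GBA2, CA3 and BCL2L13 followed with r between 0.918 and 0.970. The size of the difference was not part of the measure: the chemokine receptor CCR6 stood at 8.24 CPM in non-neural ectoderm and at most 0.274 elsewhere, HOXA3 at 6.37 against at most 0.865 and carbonic anhydrase CA3 at 5.11 against at most 1.01, while SDHB differed by 1.19-fold from its next library. Of the 8 themselves, all of which helped to form the profile, r was between 0.861 and 0.989 for 7 and 0.237 for SOX18. These coefficients rest mainly on the non-neural library standing apart from the other 7. CDH5, CCR6, PARP4, HOXA3 and CA3 reached 5 CPM in non-neural ectoderm alone. The minimum thus let them in through the library where the profile is highest, and nothing is read from their rank.

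The tissue labels and the other cell types a dissection could include were read from marker lists. Of 19 surface ectoderm markers at 5 CPM 17 were higher in non-neural ectoderm than in the neural plate and 0 lower. For the neural plate markers 12 of 12 were lower, SOX2 at 0.153 against 60.0 CPM. OTX2 stood at 14.4 CPM in non-neural ectoderm, against 283 in anterior preplacodal, 222 in posterior preplacodal and 281 in neural plate tissue. HOXA3 stood at 6.37 CPM there and at most at 0.865 elsewhere. Whether the piece was anterior, as labelled, was not tested. Endothelial markers, 17 in number and all held by the lists above, summed to 112 CPM in non-neural ectoderm and to between 21.0 and 56.6 in the other libraries. FLT4 held 53.1 and EGFL7 29.4 of the 112 CPM, and no sum was made without them. ESAM, EMCN, ENG, MMRN2 and VWF were each higher in another library. MMRN1 was at 0 in non-neural ectoderm, as was SOX17, a RefSeq row with at most 0.140 CPM in any library. Of the 4 endothelial markers at 5 CPM, 3 were higher than in the neural plate and 1 lower.

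Mesoderm markers, 30 in number, summed to 226 CPM in non-neural ectoderm and to between 67.9 and 564 elsewhere. Without the collagen gene COL1A2, which held 513 of the 564 CPM of the neural plate, a sum chosen after seeing the data was 173 CPM in non-neural ectoderm, 89.4 in anterior preplacodal, 79.5 in posterior preplacodal and 50.7 in neural plate tissue, and between 66.5 and 374 in the other 4 libraries. Over the neural plate 5 of 10 mesoderm markers at 5 CPM were higher and 3 lower. Over the anterior preplacodal region 5 of 11 were higher and 4 lower, and over the posterior 3 of 10 were higher and 3 lower. Those 4 included NKX2-5 (0.579 against 12.5 CPM), FOXC2 (2.15 against 11.8) and ISL1 (1.06 against 6.02). HAND1, a factor of lateral and extraembryonic mesoderm, held 80.8 of the 173 CPM in non-neural ectoderm and stood at most at 14.4 CPM elsewhere. CYP1B1 stood at 17.0 CPM in non-neural ectoderm against at most 7.27. TWIST1 was at 0.170 CPM and OSR1 at 0 there, and HAND2 and FOXC1 were at 0 in all 8 libraries. Both are RefSeq rows, of which 41.4% were at 0 throughout, the neural plate markers SIX3 and SOX1 among them, and 9.09% of Ensembl rows, so that these zeros do not show absence. Markers of endoderm and yolk summed to 241 CPM, against 99.0 to 373 elsewhere, with SOX17 and CER1 at 0. Without OTX2, which the neural plate list also holds, a sum likewise chosen was 227 CPM in non-neural ectoderm and between 30.9 and 116 elsewhere. APOA1 held 100 of the 227 CPM. Of 10 at 5 CPM, 8 were higher than in the neural plate and 1 lower, among them TTR (34.3 CPM and at most 7.55 elsewhere) and FGB (13.3 and at most 4.30). Red blood cell markers summed to 6.44 CPM in non-neural ectoderm and to between 2.37 and 17.5 elsewhere, with 5 of 10 at 0 and the globin HBE leading at 4.56 CPM. The part of such cells in the levels of the 8 genes was not tested.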

How the data were processed

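The deposited count table holds the authors' raw counts per gene, and the deposited FPKM table their values per transcript length and depth. TopHat2 and galGal4 are named, without roles, in the submitters' processing notes. Counting program, annotation and strand setting: not given in the sources used here. Count columns were assigned by tissue code (the non-neural one reads pNNE, its label NNE), and FPKM columns by the library codes that both tables share. CPM is the count over the column total, for all genes. FPKM columns of Ensembl genes followed their own library's counts (8 of 8 columns, r 0.903 to 0.974, genes with at least 500 counts). Those of RefSeq genes did not (0 of 7), and FPKM of the TAL1 row was not used.

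Intervals of ratios are exact (Clopper-Pearson, binomial, given both counts together), those of levels exact Poisson (95%), and all cover counting error only. Calls need a ratio of 2 and 5 CPM. The call rule was tested on simulated data. TMM factors came from edgeR 4.0.16 and size factors from DESeq2 1.42.0, as alternatives to totals, without their tests, in R 4.3.3. Other work used Python 3.11.15, pandas 2.3.3, numpy 2.4.6, scipy 1.17.1 and matplotlib 3.10.9.

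The 8 genes, the lists and the rules were chosen with earlier results of these data known. Besides the 8, the text names list genes called over the neural plate, up to 8 a list, genes of the lists at 20 CPM or more in non-neural ectoderm, and the 10 most alike profiles. Not every gene of this rule is described, and ANGPTL2, VEGFA, VEGFC, PGF, FIGF, TIE1, ACVRL1, CD34, LYVE1, VWF, ROBO4, THBD, ERG, PTPRC, CSF1R, LCP1, ITGB3, RAC2, VAV1, LAPTM5 and the marker genes were named after their values were seen. Listed names were matched by symbol or by a synonym in RefSeq's gene table for GRCg7b, which also gave the order of protein-coding genes. No coordinates are printed. Overlap with antisense genes was not examined.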

Additional observations from a re-analysis of the deposited data

Results flagged for a closer look

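The deposited FPKM table lists TAL1 at 12.5 FPKM in the column of the posterior preplacodal region, where the count table has 19 counts, and between 0.451 and 1.27 FPKM in the other 6 filled columns. The column of the non-neural ectoderm, where TAL1 has 140 counts, is empty for this row. The 12.5 FPKM stands out because it was not used for TAL1 and, read by its column name, goes against the 19 counts there. Over 241 RefSeq genes the posterior preplacodal FPKM column followed the counts of non-neural ectoderm (r 0.946) and not its own (r 0.0463). Read as a non-neural value, the 12.5 FPKM goes with the 140 counts. Other RefSeq columns also tracked a different library best. The anterior preplacodal column tracked posterior preplacodal counts (r 0.911), and the ungrafted area opaca column anterior pre-streak counts (r 0.955). For the neural plate column the best r was 0.675, with non-neural counts. The reason was not tested. The SCL row of the same gene, under an Ensembl identifier, has 5.19 FPKM in non-neural ectoderm and 0.263 FPKM in the posterior preplacodal region.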

How the results depend on the processing

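Main counts of called genes were 3 of 8 for each of the 4 comparisons of non-neural ectoderm and 0 for both other comparisons, in which no gene reached the minimum. With a minimum of 1 CPM they became 7 over the neural plate, 8 over the anterior and 7 over the posterior preplacodal region, 8 over ungrafted area opaca, 4 for node-grafted over ungrafted area opaca and 1 for anterior over central pre-streak epiblast. A minimum of 3 counts gave 7, 8, 7, 8, 5 and 1 in the same order, the 5 including RUNX1 at 0 against 3 counts, which allows no ratio. A minimum of 20 CPM left 1, KDR, in each non-neural comparison, because it admits fewer genes. Shares of all genes called at minimums of 3 counts and 20 CPM are not given, so nothing is read from these counts. TMM, DESeq2 size factors, a ratio of 4, an interval bound reaching 2, FPKM with a pseudocount of 1 or 0.1, and leaving out TAL1 (chosen after seeing the data) kept every count within 1.5 times, with 1 call lost: FLT1 over ungrafted area opaca with FPKM and a pseudocount of 1, which left 2. Of 190 recomputed ratios and medians of the 8 genes, 57 moved beyond counting error, all with FPKM and none with TMM or DESeq2 scaling. Over the neural plate, a pseudocount of 1 took the log2 ratio of KDR from 4.32 to 2.11 and that of FLT1 from 5.57 to 1.36. Of the 190, 4 changed sign, none of them a called value: SOX18 over the posterior preplacodal region (0.07 and 0.14 with FPKM) and TEK between the pre-streak regions (0.0049 and 0.04 with FPKM). No paired analysis was possible because each group has 1 library. The area opaca libraries are the shallowest, and there 4 of the 8 genes are at or under 3 counts.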

Other observations

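Genes next to the 8 in the chicken genome, by the order of protein-coding genes in the RefSeq annotation of GRCg7b, had profiles of their own. PDZK1IP1, the neighbour of TAL1 and a small membrane protein of epithelia, stood at 301 CPM in non-neural ectoderm and 2.58 CPM in the neural plate (117-fold [104, 132]), and at 253 CPM in ungrafted area opaca, where TAL1 had 1 count. STIL, on the other side of TAL1, stood at 27.2 against 30.9 CPM. The neighbour of FLI1 is ETS1, its relative among ETS factors, which was 5.22-fold higher in non-neural ectoderm than in the neural plate [4.88, 5.58] but highest in central pre-streak epiblast (81.8 CPM), where FLI1 had 8 counts. KDR lies beside KIT, with PDGFRA next after it, both receptor tyrosine kinases. KIT was highest in the anterior preplacodal region (61.3 CPM, against 24.9 in non-neural ectoderm) and PDGFRA in non-neural ectoderm (16.2 CPM). CLIC6, a chloride channel gene beside RUNX1, was 4.79-fold higher in non-neural ectoderm than in the neural plate [4.46, 5.15], with 35.7 CPM in ungrafted area opaca. FLT3, a receptor of blood progenitors near FLT1, was at 0.0681 CPM in non-neural ectoderm and at most 0.137 CPM elsewhere.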
